A study of Mus musculus with 50 samples.

Results

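The regions described here are the WT H3K27me3 peaks that lay outside SUZ12 and were no longer listed in *Ezh2* KO ESCs. They were chosen by overlap with a minimum of 1 bp: a WT H3K27me3 peak that shared no base with a WT SUZ12 peak and no base with an *Ezh2* KO H3K27me3 peak. This rule left 7749 of the 16754 WT H3K27me3 peaks (46.3%), which held 26.4% of all WT H3K27me3 bases. They are called lost outside peaks below. The 3825 outside peaks that overlapped an *Ezh2* KO peak are called kept outside peaks, and the 4583 peaks on SUZ12 that overlapped one are called kept SUZ12 peaks. Since the WT H3K27me3, WT SUZ12 and *Ezh2* KO H3K27me3 lists chose the regions, their values there are a description only.

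The study compared mouse embryonic stem cells (ESCs) of the wild-type line E14 (WT) with cells edited by CRISPR/Cas9. The *Ezh2* KO line lacks EZH2 and keeps EZH1, and the *Ezh1/2* dKO line lacks both. The *Ezh2* Y726D line carries a homozygous point mutation that the study describes as catalytically inactive, and the *Ezh2* R685C line carries another point mutation of EZH2, both in *Ezh1* KO cells, so that these lines, like *Ezh1/2* dKO, have no EZH1 beside the mutated enzyme. In 1 further line, *Ezh1/2* dKO cells were rescued with HA-tagged human EZH1 from a transfected vector. All cells were grown with serum, LIF and the kinase inhibitors known as 2i, and the edited lines are clones, so clone and genotype cannot be told apart. The Y726D samples whose labels leave out the *Ezh1* knockout were taken as the same line. Each ChIP-seq and ATAC-seq list came from 1 library per line and target, so no difference between lines was tested, and 95% confidence intervals (Wilson, written CI) cover counting error only. Read depth is unknown for these lists and can change how many peaks they hold. RNA-seq had 2 libraries per line, in all lines but *Ezh2* R685C.

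Polycomb repressive complex 2 (PRC2) methylates lysine 27 of histone H3. Its core holds EED, SUZ12 and 1 of the methyltransferases EZH1 and EZH2, and SUZ12 marks where the complex is stably bound, mostly CpG islands of silent developmental genes. The enzyme adds methyl groups one after another, so H3K27me1 and H3K27me2 are the steps before H3K27me3. In ESCs, H3K27me3 is known at PRC2-bound islands and in their flanks, while H3K27me2 is known to cover wide stretches of chromatin between active genes.

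The lost outside peaks were richer in GC and CpG than the genome as a whole, and poorer in CpG than peaks on SUZ12. In the 500 bp around the summit, the median GC content was 50.6% and the median CpG density 1.2 per 100 bp, against 41.6% and 0.60 in all 500-bp windows of the genome. Kept SUZ12 peaks reached 56.2% GC and 3.8 CpG per 100 bp. A GC content of at least 50% with an observed/expected CpG ratio of at least 0.6, the usual criteria of a CpG island, was met by 124 of 7749 lost outside peaks (1.60%, CI 1.34 to 1.90). All 500-bp windows of the genome reached 0.723%, kept outside peaks 3.76% and kept SUZ12 peaks 34.6%. Below, 200 bp around the summit are shown for 5 lost outside peaks and, as a contrast, for the kept SUZ12 peak nearest to one of them, because the groups differed in CpG dinucleotides, which are written in capitals. Coordinates and bases are those of mm9, plus strand. The peaks are the strongest lost outside peak (near Oas1f, between genes, chr5:121293875-121294074), the peak in an intron of Hoxc6 that ended 16 bp from a SUZ12 peak (chr15:102834789-102834988), the peak farthest from SUZ12 (near Csda, between genes, chr6:131384532-131384731), and the strongest peaks of Tns1 and Esrrb, both intronic (chr1:74147394-74147593 and chr12:87741899-87742098). The contrast lies 6523 bp from the Hoxc6 peak, next to Hoxc8 (chr15:102826207-102826406).
Oas1f: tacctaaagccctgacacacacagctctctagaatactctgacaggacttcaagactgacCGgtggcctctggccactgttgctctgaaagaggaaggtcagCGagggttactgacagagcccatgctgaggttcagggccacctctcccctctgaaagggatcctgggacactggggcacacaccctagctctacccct
Hoxc6: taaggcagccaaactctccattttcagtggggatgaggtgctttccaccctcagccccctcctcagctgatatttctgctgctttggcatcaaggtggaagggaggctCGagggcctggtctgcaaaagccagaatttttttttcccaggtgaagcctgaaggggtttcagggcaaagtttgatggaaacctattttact
Csda: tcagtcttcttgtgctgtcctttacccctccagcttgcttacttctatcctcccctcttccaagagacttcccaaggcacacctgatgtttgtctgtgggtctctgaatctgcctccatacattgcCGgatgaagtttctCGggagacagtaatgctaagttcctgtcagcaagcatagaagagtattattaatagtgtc
Tns1: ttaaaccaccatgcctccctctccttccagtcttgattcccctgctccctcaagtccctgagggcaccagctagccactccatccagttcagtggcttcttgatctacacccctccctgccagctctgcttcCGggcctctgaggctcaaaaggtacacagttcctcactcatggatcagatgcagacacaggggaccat
Esrrb: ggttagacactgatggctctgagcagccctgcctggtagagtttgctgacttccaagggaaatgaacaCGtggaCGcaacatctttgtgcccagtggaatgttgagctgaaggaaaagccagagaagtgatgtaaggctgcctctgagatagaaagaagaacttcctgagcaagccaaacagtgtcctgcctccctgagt
Hoxc8, kept on SUZ12: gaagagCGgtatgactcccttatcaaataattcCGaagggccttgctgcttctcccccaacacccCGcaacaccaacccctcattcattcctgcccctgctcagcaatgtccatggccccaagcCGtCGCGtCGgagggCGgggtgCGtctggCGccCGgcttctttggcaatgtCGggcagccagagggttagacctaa
The 5 lost outside peaks show 1 or 2 CpG in 200 bp and the kept SUZ12 peak shows 12. The whole kept SUZ12 peak holds 1.80 CpG per 100 bp, and the whole lost outside peaks hold 0.322 to 1.25. The printed bases by Hoxc8 are thus denser in CpG than their own peak and than the median of kept SUZ12 peaks (3.8).

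The lost outside peaks were narrow and weak. Their median width was 398 bp (quartiles 281 and 600). Their median -log10 p was 11.8 (quartiles 10.8 and 13.7), with 32.7 as the highest. The WT and *Ezh2* KO H3K27me3 lists stop at the same p threshold, and the weakest lost outside peaks lay at it. A peak below this threshold in *Ezh2* KO is not listed, so lost means no longer listed. Whether the mark itself was absent there was not tested. Kept outside peaks had a median width of 647 bp and a median -log10 p of 14.1, and kept SUZ12 peaks 1256 bp and 18.4. Of the outside peaks, 67.0% were lost (CI 66.1 to 67.8), against 597 of 5180 peaks on SUZ12 (CI of this share 10.7% to 12.4%). At the edges of the rule, 62 lost outside peaks ended within 100 bp of a SUZ12 peak, while 37 peaks without *Ezh2* KO H3K27me3 stayed out of the group for a SUZ12 overlap of 1 to 100 bp. Likewise, 172 lost outside peaks ended within 100 bp of an *Ezh2* KO H3K27me3 peak and 169 outside peaks shared 1 to 100 bp with one.

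The lost outside peaks were spread from the edge of SUZ12 sites into chromatin far from any. As the choice of the peaks used SUZ12, their distances are a description. The median gap to the nearest WT SUZ12 peak was 10225 bp (quartiles 1700 and 78603 bp), against 1651 bp for kept outside peaks. A SUZ12 peak lay within 1 kb of 15.0% of the lost outside peaks (CI 14.3 to 15.9) and of 41.0% of the kept ones (CI 39.5 to 42.6). Within 5 kb the shares were 42.3% and 61.0%, and within 100 kb 78.4% and 82.5%. The remaining 1677 lost outside peaks (21.6%) had no SUZ12 peak within 100 kb. The nearest *Ezh2* KO H3K27me3 peak was a median of 7357 bp away (quartiles 1061 and 67265 bp). Conversely, 42.6% of the outside peaks up to 1 kb from SUZ12 were lost, and between 71.4% and 80.5% of those in each bin of greater distance. When WT H3K27me3 peaks up to 5 kb apart were joined into domains, 45.7% of the lost outside peaks fell into a domain with SUZ12, and 47.6% into 2598 domains made only of lost outside peaks, with a median width of 451 bp and a maximum of 25077 bp.

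**Figure D1:**
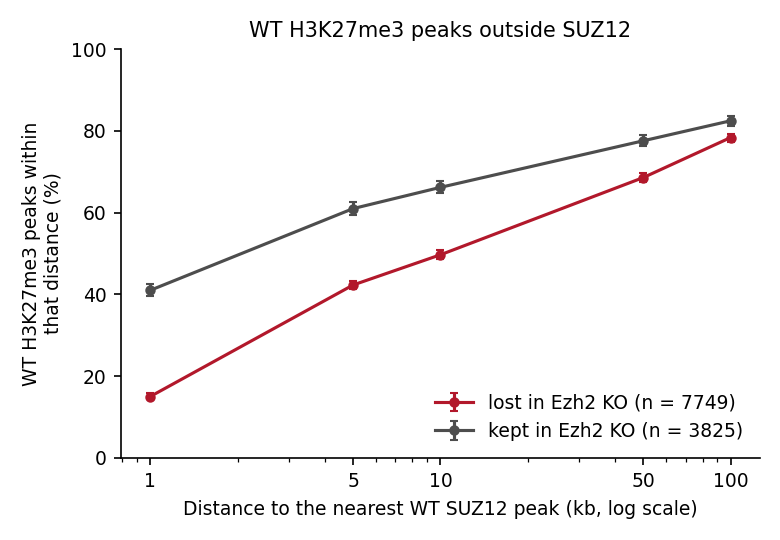
Share of lost (red, n = 7749) and kept (grey, n = 3825) WT H3K27me3 peaks outside SUZ12 on the y axis, in percent, that have a WT SUZ12 peak within the distance on the x axis, in kb on a log scale. Bars are Wilson 95% intervals. The red line starts at 15.0% against 41.0% within 1 kb, and both lie near 80% within 100 kb (78.4% and 82.5%).

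The 5 lost outside peaks farthest from SUZ12 had gaps of 2099198 to 3133666 bp. A pair of them stood side by side 45216 and 45757 bp from Csda, a cold-shock domain gene, with -log10 p of 12.1 and 11.2. The others lay 1482 bp from Unc80, which encodes a subunit of the sodium leak channel complex, 6099 bp from Gm973, and 85 bp from Gyg, the glycogenin gene that primes glycogen synthesis. Each of the 5 lay in an *Ezh2* KO H3K27me2 region, of 2783 to 8274 bp, and none in a WT one.

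The lower methylation states were compared next. The H3K27me2 and H3K27me1 lists give broad regions called at a much weaker threshold (median -log10 p of 1.26 to 1.51 per list). For H3K27me2, 19 chromosomes shared by the 4 lines were used, which left 7544 lost outside peaks, with chromosomes 8 and Y not analysed here. In WT, 11% of them overlapped an H3K27me2 region (CI 10.3 to 11.7), below the 20.2% of all 500-bp windows. In *Ezh2* KO ESCs, 98.2% did (CI 97.9 to 98.5), while all windows stayed at 20.5%. Counted by bases, the coverage was 7.12% in WT and 97.8% in *Ezh2* KO. In *Ezh1/2* dKO the share was 40.7% against 35.1% of the windows, and in *Ezh2* Y726D 45.9% against 34.5%. By western blot, the study found every H3K27 methylation state lost in both of these lines. What the weak regions listed for them hold was not tested. For *Ezh2* KO, the same blot showed bulk H3K27me2 and H3K27me3 lost and H3K27me1 kept. The study's ChIP-seq, scaled by spike-in, showed H3K27me2 lost inside weakly expressed genes and raised at Polycomb-bound promoters in this line. The lists used here carry no such scaling, so an overlap does not give the amount of the mark. Of the 4 libraries, the one from *Ezh2* KO had nearly all lost outside peaks inside H3K27me2.

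An H3K27me2 region present in *Ezh2* KO and absent in WT was counted as a gain. A gain is thus a newly listed region and not a measured rise in the amount of the mark. Of the 7544 lost outside peaks, 6629 gained one (87.9%, CI 87.1 to 88.6), against 15.4% of all windows and 92.3% of all WT H3K27me3 peaks. Another 780 (10.3%) had one in both lines, 50 (0.663%) had one only in WT, and 85 (1.13%) had none in either, against 5.04%, 15.1% and 64.4% of the windows. Peaks that kept H3K27me3 gained it as well: 96.6% of kept outside peaks and 98.0% of kept SUZ12 peaks gained a region too. By strength, 97.7% to 98.6% of each quintile of WT -log10 p overlapped *Ezh2* KO H3K27me2. By distance from SUZ12, the share was 97.2% to 98.9% in each bin. The H3K27me2 lists also give narrow blocks of stronger signal inside the broad regions. In *Ezh2* KO, 54.3% of the lost outside peaks held such a block, against 1.30% of all windows, 96.3% of kept outside peaks and 92.7% of kept SUZ12 peaks. In each of WT, *Ezh1/2* dKO and *Ezh2* Y726D, 1 lost outside peak held a block (0.0133%), against 0.00323%, 0.00350% and 0.00352% of the windows. The *Ezh2* KO list held 29103 such blocks and the other lists 99 to 112.

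The 4219 *Ezh2* KO H3K27me2 regions that held lost outside peaks were 2.28% of the list on these chromosomes, and they were wide and strong, with a median width of 8401 bp and a median -log10 p of 3.73, against 1005 bp and 1.5 for the rest of the list. Of these regions, 41.7% also held a WT SUZ12 peak, 43.5% an *Ezh2* KO H3K27me3 peak, and 49.3% neither (2081 regions). The latter contained 2936 of the lost outside peaks (38.9%). In WT, the 754 regions with lost outside peaks had a median width of 1465 bp and a median -log10 p of 1.44, close to the 1.37 of the rest. Around the peak centres, *Ezh2* KO H3K27me2 covered 96.3% of the bases in the central bins and 45.2% and 45.0% in the bins 20 kb away on either side. WT H3K27me2 ran the other way, with 7.62% and 7.93% at the centre and 22.6% and 23.1% at the ends of the window. *Ezh1/2* dKO and *Ezh2* Y726D had small maxima at the centre, at 27.5% and 34.0%, over 24.9% to 28.1% at the ends.

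**Figure D2:**
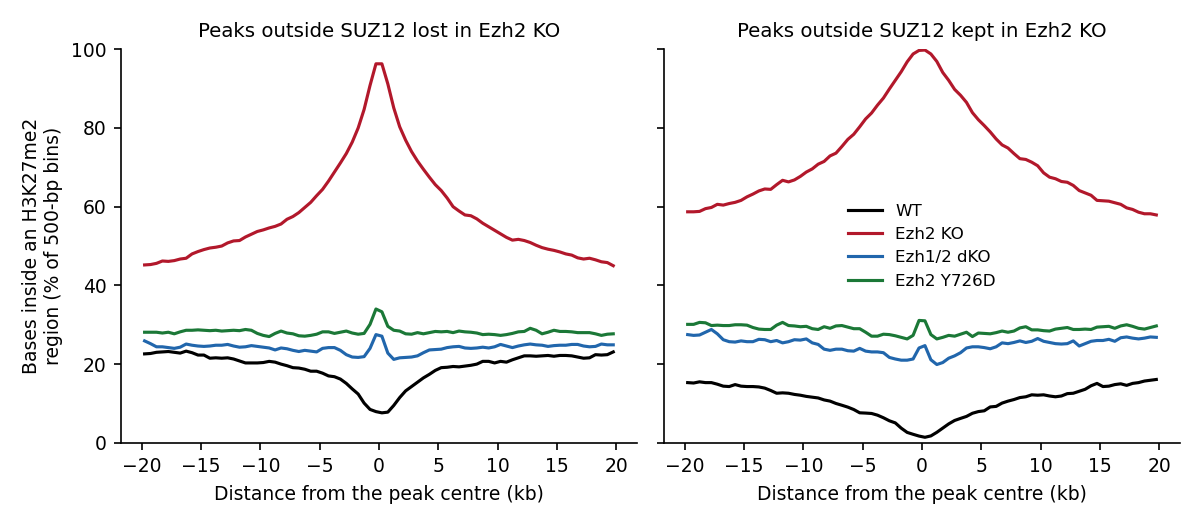
Percent of bases in 500-bp bins (y axis) that lay in an H3K27me2 region, by distance from the peak centre in kb (x axis), for lost (left) and kept (right) WT H3K27me3 peaks outside SUZ12, with 1 line per cell line. In the left panel the *Ezh2* KO line peaks at 96.3% over the centre and WT dips to 7.62%.

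H3K27me1 regions also covered most lost outside peaks in *Ezh2* KO and few in WT. On 19 chromosomes, 29 of 7544 lost outside peaks overlapped a WT H3K27me1 region (0.384%, CI 0.268 to 0.552), against 19.3% of the windows. In *Ezh2* KO, 84.6% did (CI 83.8 to 85.4), against 27.1% of the windows. Here lost outside peaks stood above the other groups, as 69.5% of kept outside peaks (CI 68.0 to 71.0) and 43.0% of kept SUZ12 peaks (CI 41.6 to 44.5) overlapped *Ezh2* KO H3K27me1. Among the lost outside peaks, the share was 70.4% up to 1 kb from SUZ12 and 85.2% to 89.8% in the bins beyond 1 kb. On the 9 chromosomes that the 4 lines share for this mark, 38.5% overlapped *Ezh1/2* dKO H3K27me1 and 51.2% *Ezh2* Y726D H3K27me1, against 17.2% and 19.4% of the windows. Since the study reported H3K27 methylation as lost in both lines, a share above the windows need not mean the mark itself. For H3K27me1 the windows are therefore not a clean background, also in *Ezh2* KO.

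**Figure D3:**
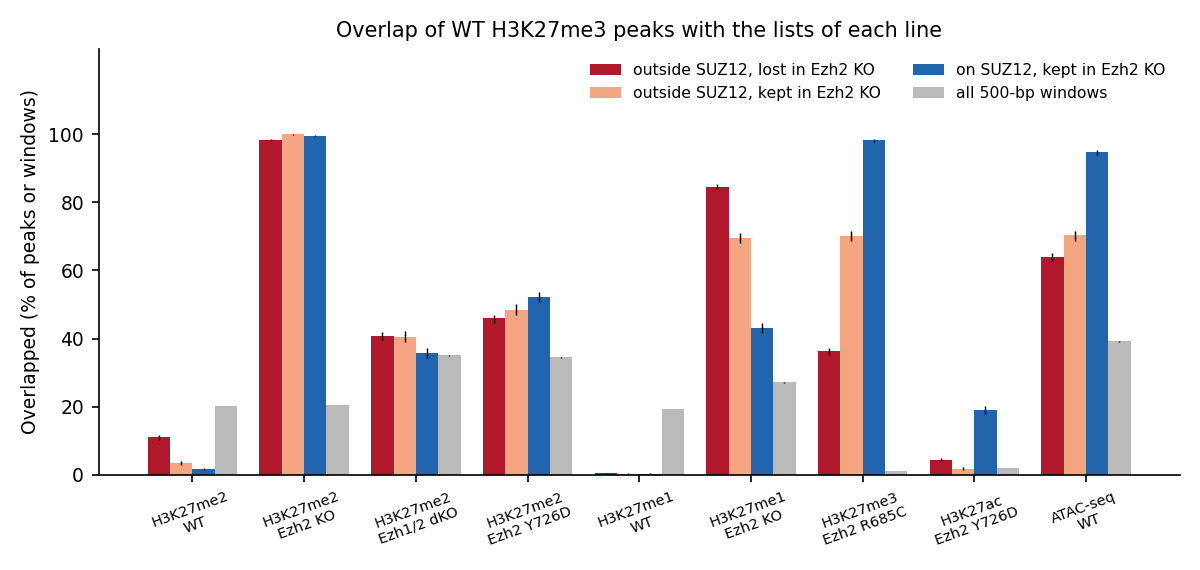
Percent of lost outside peaks (red), kept outside peaks (orange), kept SUZ12 peaks (blue) and all 500-bp windows (grey) that overlap each list named on the x axis, with Wilson 95% intervals. *Ezh2* KO H3K27me2 covers all 3 groups of peaks almost fully (98.2% of the red group), while the red bar of *Ezh2* R685C H3K27me3 stands at 36.3% against 98.2% for the blue one.

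The *Ezh2* R685C library was an H3K27me3 measurement that the choice of the regions did not use. Its list held 22245 peaks over 19.8 Mb, more than the WT list, and the size of a list bears on its overlaps. In it, 2810 of the 7749 lost outside peaks overlapped an H3K27me3 peak (36.3%, CI 35.2 to 37.3), against 1.16% of all windows, 70.1% of kept outside peaks (CI 68.6 to 71.5) and 98.2% of kept SUZ12 peaks. The share was 27.6% in the weakest quintile of WT -log10 p and 48.9% in the strongest. By distance from SUZ12 it was 33.0% up to 1 kb, 31.0% from 1 to 5 kb, 44.4% and 44.7% in the next bins, 40.9% from 50 to 100 kb and 32.9% beyond 100 kb, so it did not fall steadily away from SUZ12. The peaks with *Ezh2* R685C H3K27me3 were wider (median 479 bp against 359 bp) than those without. They had a higher GC content (54.6% against 48.6%) and more CpG (1.80 against 1.00 per 100 bp). By bases, *Ezh2* R685C H3K27me3 covered 29.1% of lost outside peaks, 57.4% of kept outside peaks and 85.4% of kept SUZ12 peaks. In *Ezh1/2* dKO and in *Ezh2* Y726D, 0 of 7749 lost outside peaks overlapped H3K27me3 (CI up to 0.0495%), where the lists held 53 and 3862 peaks and overlapped 0.00205% and 0.148% of the windows. These lists overlapped 24 and 15 of all 16754 WT H3K27me3 peaks.

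**Figure D4:**
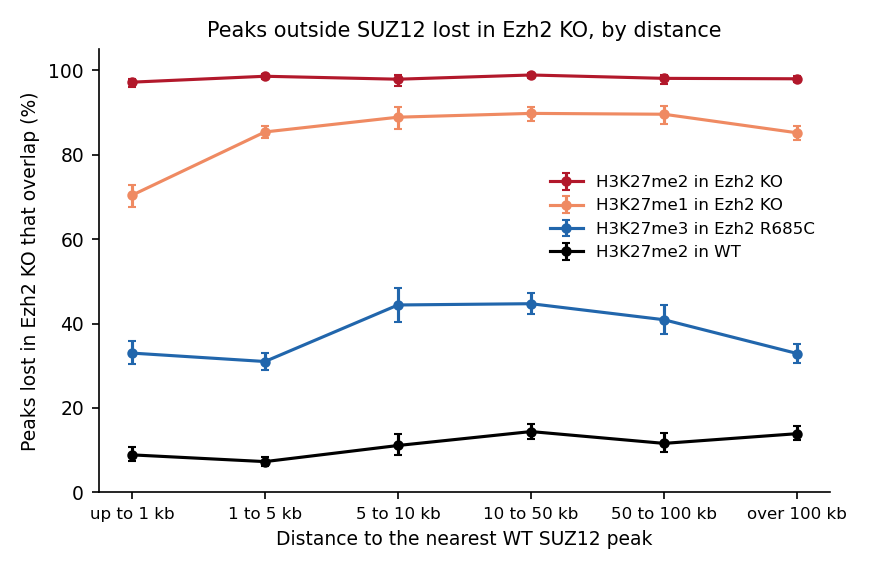
Percent of lost outside peaks (y axis) that overlap *Ezh2* KO H3K27me2 (red), *Ezh2* KO H3K27me1 (orange), *Ezh2* R685C H3K27me3 (blue) and WT H3K27me2 (black), by distance to the nearest WT SUZ12 peak (x axis), with Wilson 95% intervals. The red line stays between 97.2% and 98.9%, and the orange line starts at 70.4% up to 1 kb.

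SUZ12 of the edited lines overlapped 0 to 22 of these sites. The choice had left out all peaks on WT SUZ12, so low overlaps with SUZ12 and HA lists can follow from it. They are a description only. Of the 1486 WT H3K27me3 peaks that overlapped *Ezh2* KO SUZ12, 1483 were kept SUZ12 peaks. In *Ezh2* KO and in *Ezh1/2* dKO it overlapped 0 of 7749 (CI up to 0.0495%), against 0.0895% and 0.0119% of the windows. In *Ezh2* Y726D it overlapped 22 (0.284%, CI 0.188 to 0.430), above the 0.153% of the windows, and in *Ezh2* R685C 15 (0.194%, CI 0.117 to 0.319), an interval that holds the 0.238% of the windows. HA-tagged EZH1 overlapped 13 lost outside peaks (0.168%, CI 0.0981 to 0.287), against 0.234% of the windows, and the HA control without the tagged protein 8 (0.103%, CI 0.0523 to 0.204), against 0.0416%. H3K27ac, a mark of active promoters and enhancers on the same lysine, was found at 23 lost outside peaks in *Ezh2* KO, 55 in *Ezh1/2* dKO, 68 in *Ezh2* R685C and 339 in *Ezh2* Y726D. Among these, the share in *Ezh2* Y726D, 4.37% (CI 3.94 to 4.85), was above that of all windows (2.03%). The shares in *Ezh2* KO (0.297%, CI 0.198 to 0.445) and *Ezh2* R685C (0.878%, CI 0.693 to 1.11) were below those of the windows (1.24% and 2.62%), and the interval in *Ezh1/2* dKO (0.710%, CI 0.546 to 0.923) held the 0.757% of the windows. Kept SUZ12 peaks reached 19% in *Ezh2* Y726D. By bases, *Ezh2* Y726D H3K27ac covered 2.98% of lost outside peaks, 7.37% of kept SUZ12 peaks and 1.37% of the windows. WT H3K27ac was not analysed here. ATAC-seq regions, which mark accessible DNA and were listed at a weak threshold, overlapped 64.0% of the lost outside peaks in WT, against 39.2% of the windows. The shares were 61.3% against 40.1% in *Ezh2* KO, 67.3% against 40.8% in *Ezh1/2* dKO, and 64.5% against 38.3% in *Ezh2* Y726D. Among kept SUZ12 peaks, 94.7% overlapped WT ATAC-seq. These peaks are wider, and a wide peak meets an overlap of 1 bp more easily. By bases, WT ATAC-seq covered 45.8% of lost outside peaks, 44.8% of kept outside peaks, 61.8% of kept SUZ12 peaks and 24.2% of the windows.

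Lost outside peaks were more often intergenic or intronic than kept SUZ12 peaks, and less often than the genome's windows. A transcription start site (TSS) of a protein-coding gene lay within 5 kb of 50.4% of them (CI 49.3 to 51.5), against 59.1% of kept outside peaks, 83.2% of kept SUZ12 peaks and 12.8% of the windows. By position, 18.1% lay within 1 kb of a TSS, 10.3% on an exon further away, 28.1% in an intron and 43.5% between genes. The windows had 3.78%, 4.84%, 31.2% and 60.2%, and kept SUZ12 peaks 67.6%, 10.6%, 5.91% and 15.9%. They were found on every autosome, where 54.7% (chromosome 8) to 74.0% (chromosome 16) of the outside peaks were lost. The X chromosome had few, with 10 of 50 outside peaks lost.

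The strongest lost outside peak, with a -log10 p of 32.7 and a width of 1321 bp, lay 2988 bp from Oas1f, of the oligoadenylate synthetase family that senses viral RNA, and 131234 bp from SUZ12. The next lay at the TSS of 5330417C22Rik (-log10 p 30.2), 119755 bp from SUZ12, and overlapped an *Ezh2* R685C H3K27me3 peak with a -log10 p of 56.3. The intronic peak in Hoxc6, a homeobox gene of the HOXC cluster, followed with 30.1. Peaks by Adamtsl5, a gene of the ADAMTS-like extracellular proteins, and Necab3, a calcium-binding protein gene, both had 29.0, and the latter lay 900128 bp from SUZ12. The other 5 of the strongest 10 lay by Tmcc3, Slc26a10, Glp1r (a hormone receptor gene), Btrc (an F-box protein gene) and Duoxa1, with 27.8 to 28.6. Of these 10 peaks, 9 overlapped an H3K27me2 region in *Ezh2* KO, 1 in WT (Glp1r), and 7 an *Ezh2* R685C H3K27me3 peak. The exception in *Ezh2* KO was the peak in Tmcc3. The 5 strongest peaks that gained H3K27me2 were those by Oas1f, 5330417C22Rik, Hoxc6, Adamtsl5 and Necab3, in *Ezh2* KO regions of 19180, 4466, 20525, 29547 and 4077 bp.

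Lost outside peaks were counted per gene without allowing for gene length, and whether they clustered in genes was not tested. Within 5 kb of a gene's body, 3254 of 22367 protein-coding genes had at least 1. The 10 genes with the most bases held 2.91% of all. Tns1, which encodes the focal adhesion protein tensin, led with 24 peaks and 20674 bp, up to 66250 bp from SUZ12. Of its 24 peaks, 4 overlapped H3K27me2 in WT and 15 in *Ezh2* KO, a smaller share in *Ezh2* KO than in the others for which it was counted. Sez6, a neuronal membrane protein gene, had 15 peaks over 12746 bp, of which 1 lay in H3K27me2 in WT and 15 in *Ezh2* KO. Pear1, a receptor gene of platelets and endothelium, had 18 peaks, with 0 in WT and 18 in *Ezh2* KO. Of these 18 peaks, 14 had H3K27me3 in *Ezh2* R685C.

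Pitpnm2, a phosphatidylinositol transfer protein gene, was the only one of the 10 with no other H3K27me3 and no SUZ12 within 5 kb. Its 13 peaks, over 8947 bp, lay 73496 to 155013 bp from SUZ12, and 12 overlapped H3K27me2 in *Ezh2* KO against 2 in WT. Esrrb, a pluripotency transcription factor gene that these cells express, had 15 peaks with a -log10 p of up to 21.1. All 15 lay in H3K27me2 in *Ezh2* KO and 0 in WT, and 4 carried H3K27me3 in *Ezh2* R685C. Its normalized counts were 2082 and 2307 in WT against 2497 and 2280 in *Ezh2* KO (log2 fold change 0.12 ± 0.12 SE, adjusted p = 0.806 by limma). Others among the 10 were Pcdhgc5, a clustered protocadherin gene with 13 peaks, Arhgap26, a GTPase-activating protein gene with 17, and Gm20388, an annotation that spans 4435 kb of chromosome 8 and thus holds 26 peaks of many genes.

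Lists of genes by role were examined within 5 kb of the gene, where 14.5% of all protein-coding genes had a lost outside peak. Any peak along the gene counted, so a long gene can hold one more easily, and gene length was not allowed for. The share of all genes with SUZ12 in this span was not counted. Of 31 developmental transcription factor genes located, 31 had SUZ12 and 20 had a lost outside peak, among them Tbx5 (4 peaks), Gata4 (3 peaks), Pax6 and T (2 each). Peaks of Gata4 lay 708 to 1468 bp from SUZ12. Of 15 PcG loci that the study followed, all with SUZ12, 5 had one (Wnt5a, Cdx2, Lhx5, Olig3 and Mmp25). Of 28 axon guidance and neuronal adhesion genes, 11 had one and 22 had SUZ12. In Nrxn3, the only H3K27me3 was 1 lost outside peak 1834239 bp from SUZ12. The list of 34 neurotransmitter receptor and ion channel genes had 13, with 1 to 4 peaks each, and 27 with SUZ12. Of 27 imprinted genes, 14 had SUZ12 and 6 a lost outside peak, led by Kcnq1, the potassium channel gene around an imprinted antisense RNA, with 14 peaks up to 140150 bp from SUZ12. The germline list had 2 of 12 (Tdrd1 and Dmrt1), the PRC2 subunits 1 of 12 (Phf19), the ESC markers 2 of 12 (Esrrb and Tbx3), and the markers of differentiated cells 9 of 12, with SUZ12 at 3, 1, 3 and 9 genes. The X-inactivation centre and the housekeeping genes had 0 of 10 and 0 of 12, with SUZ12 at 2 and 0 genes.

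RNA-seq libraries held 3604123 to 5181553 reads. The targeted genes followed the genotypes, and Ezh1 was low in *Ezh2* Y726D too. Ezh2 had normalized counts of 598 and 546 in WT, 1.05 and 0.968 in *Ezh2* KO, 0.824 and 1.78 in *Ezh1/2* dKO, and 422 and 613 in *Ezh2* Y726D. Ezh1 had 227 and 377 in WT, 372 and 378 in *Ezh2* KO, 14 and 20.4 in *Ezh1/2* dKO, and 24.1 and 15.7 in *Ezh2* Y726D. All 12 ESC markers were detected in every library, with summed levels of 15404 to 18402. Of these, Dppa3 was called higher in *Ezh1/2* dKO (1.32 ± 0.33, adjusted p = 0.0775 by limma) and lower in *Ezh2* Y726D (-2.66 ± 0.33, adjusted p = 0.0113 by limma), both as log2 fold changes. The summed level of the 12 markers of differentiated cells was 288 and 264 in WT, 246 and 382 in *Ezh2* KO, 487 and 701 in *Ezh1/2* dKO and 431 and 1066 in *Ezh2* Y726D, with 1 to 6 markers at 0 per library. Few genes carried the higher sums, so they do not stand for the whole list. Krt8 had 359 in *Ezh1/2* dKO replicate 2, and Cdx2 and Krt8 had 440 and 348 in *Ezh2* Y726D replicate 2. Whether differentiated cells had a part in the differences given next was not tested.

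A lost outside peak lay within 5 kb of a TSS in 2621 genes, of which 1561 (59.6%) also had SUZ12 within 5 kb and 893 (34.1%) had neither SUZ12 nor another WT H3K27me3 peak there. In the RNA-seq table, 2324 of the genes were matched, and 1604 passed the filter of a mean normalized count of at least 5 over the 8 libraries. These are not all of them, since a gene silent in WT passed only where another line expressed it. They were lowly expressed, with a median WT normalized count of 28.1, against 174 for all tested genes matched to the annotation.

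In *Ezh2* KO ESCs, 3 of the 1604 genes were called higher and 7 lower by limma (adjusted p under 0.1, absolute log2 fold change of at least 1). That is 0.187% and 0.436%, against 0.0937% and 0.310% of all 13872 genes tested (0.404% in either direction). Their median log2 fold change was -0.01, the same as that of all matched genes (-0.01). The count depended on the method. edgeR called 2 of these genes, both higher, against 7 higher and 23 lower of all genes. DESeq2 called 11 higher and 25 lower, against 45 and 99. Quantile normalization left 2 higher and 1 lower, as did the fit with replicate number as a block, each against 9 and 25. Fits without 1 library leave that line with 1, which is then assumed to vary like the other lines. Without WT replicate 1 or *Ezh2* KO replicate 2, limma called 0. At an unadjusted p under 0.05 there were then 197 and 192 of these genes (12.2% and 11.9%), against 6.81% and 6.02% of all genes. Without *Ezh2* KO replicate 1 and without WT replicate 2, the median log2 fold change of these genes was 0.07 and -0.04, against 0.00 and -0.02 for all genes.

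In *Ezh1/2* dKO, 170 were called higher and 4 lower (10.6% and 0.249%, against 3.63% and 0.389% of all genes, or 4.02% in either direction). Their median log2 fold change was 0.64, against 0.01 for all matched genes. edgeR and DESeq2 called 173 and 184 of them higher, against 516 and 520 of all 13872 genes. Without *Ezh1/2* dKO replicate 1 or 2, their median log2 fold change was 0.65 and 0.63, against 0.01 for all genes. In *Ezh2* Y726D, 95 were higher and 15 lower (5.92% and 0.935%, against 1.66% and 1.06%, or 2.72% in either direction), with a median of 0.36 against -0.01. With only the WT and *Ezh2* Y726D libraries in the fit, 10 were called higher and 0 lower, against 20 and 12 of all 13675 genes. The median log2 fold change was 0.37 without *Ezh2* Y726D replicate 2, 0.38 without *Ezh2* Y726D replicate 1 and 0.37 without WT replicate 1. Quantile normalization gave medians of 0.27 in *Ezh1/2* dKO and 0.25 in *Ezh2* Y726D. All 3 comparisons share the WT libraries.

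The genes were also split by SUZ12, and the differences between these groups were not tested. Of 657 tested genes with a lost outside peak and no SUZ12 within 5 kb, 48 were higher in *Ezh1/2* dKO (7.31%) and 26 in *Ezh2* Y726D (3.96%). Of 947 with both, 122 (12.9%) and 69 (7.29%) were. Genes with SUZ12 but no lost outside peak within 5 kb gave 12.2% and 6.51% of 952. In *Ezh2* KO, the groups had 1, 2 and 2 genes higher.

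The genes higher in *Ezh2* KO were Spats2l, Meis2 and Hmga2. Meis2, a homeobox gene with 7 lost outside peaks within 5 kb of its TSSs and SUZ12 as well, had normalized counts of 204 and 210 in WT against 551 and 518 in *Ezh2* KO (log2 fold change 1.36 ± 0.19, adjusted p = 0.0262 by limma). Hmga2, an architectural chromatin protein gene, had 179 and 220 in WT against 427 and 463 in *Ezh2* KO (1.16 ± 0.19, adjusted p = 0.0568 by limma). Spats2l, without SUZ12 within 5 kb, had 53.4 and 65.5 in WT against 184 and 139 in *Ezh2* KO (1.42 ± 0.25, adjusted p = 0.083 by limma). In all 3, both *Ezh2* KO libraries lay above both WT libraries. Such a separation goes with the call and is no further evidence, and its share among all genes was not counted. Hmga2 was called higher in all 3 lines, and Spats2l in *Ezh1/2* dKO as well.

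The genes lower in *Ezh2* KO were Dcc, Arg2, Cobll1, Sp110, Cacna1s, Fam124a and Aldh1a2, with both libraries below both WT libraries in each. Here too the separation goes with the call and is no further evidence. Dcc, a netrin receptor gene of axon guidance, had 41.4 and 7.70 in WT and 0 in both *Ezh2* KO libraries, at least 16.3-fold lower in the mean when 3 reads over the group are taken as the floor, and at least 5.1-fold against the lower WT library alone. Cobll1 had 14.7 and 12.5 in WT and 0 in both, at least 9.01-fold lower. Aldh1a2, which makes retinoic acid, had a mean of 123 in WT (95 and 124 reads in the libraries), and normalized counts of 25.1 and 24.2 in *Ezh2* KO, and 72.5 and 84.4 in *Ezh1/2* dKO (log2 fold change in *Ezh2* KO -2.27 ± 0.41, adjusted p = 0.086 by limma). Arginase gene Arg2 had 44.0 and 25 in WT, 4.18 and 0 in *Ezh2* KO, and 173 and 234 in *Ezh1/2* dKO. The calcium channel gene Cacna1s had 42.7 and 17.3 in WT, 1.05 and 1.94 in *Ezh2* KO, and 95.6 and 156 in *Ezh1/2* dKO. Both were called higher in *Ezh1/2* dKO. Sp110, a nuclear body protein gene, had 56.0 and 21.2 in WT against 3.14 and 0.968 in *Ezh2* KO, and Fam124a 32.0 and 18.3 in WT against 1.05 and 1.94 in *Ezh2* KO.

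**Figure D5:**
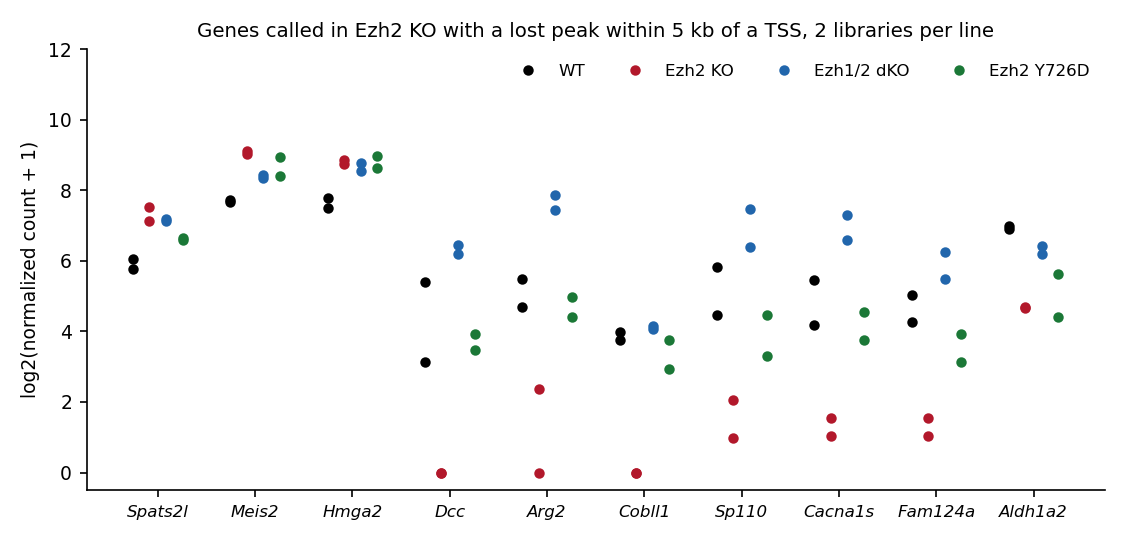
The log2 of the normalized count plus 1 (y axis) of the 10 genes called in *Ezh2* KO that have a lost outside peak within 5 kb of a TSS (x axis), with 1 point per library and 2 libraries per line. In the 3 genes on the left both *Ezh2* KO points lie above both WT points, and in the 7 on the right below them.

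Among the genes higher in *Ezh1/2* dKO, the largest log2 fold changes on the log2(normalized count + 1) scale, with both libraries above both WT libraries, were those of Cd44, Fmo1, Syt13, Agpat9 and Nfia. Cd44, the hyaluronan receptor gene, had 0 in both WT libraries, 5.23 and 8.71 in *Ezh2* KO and 27.2 and 35.5 in *Ezh1/2* dKO, at least 18.2-fold higher in the latter. Its lost outside peak lay 231 bp from a TSS, with no SUZ12 within 5 kb. Fmo1, a flavin monooxygenase gene without SUZ12, had 0 in both WT libraries and 9.89 and 71.0 in *Ezh1/2* dKO, at least 23.5-fold higher in the mean and at least 5.74-fold with the lower library alone. Being at 0 in WT, Cd44 and Fmo1 passed the filter only through lines that expressed them. They could thus be called only as higher. Syt13 (0 and 1.93 in WT), Agpat9 (6.67 and 0) and Nfia had WT means below 5 and also passed only through other lines. Nfia, a transcription factor gene of neural and glial differentiation, had 0 and 9.63 in WT, 6.27 and 10.6 in *Ezh2* KO, 70.1 and 58.6 in *Ezh1/2* dKO and 43.7 and 64.9 in *Ezh2* Y726D, where it was called higher as well. Lower in *Ezh1/2* dKO were Nkx6-3, Dnajc22, Mcam and Dpys, with log2 fold changes from -2.63 to -1.0.

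In *Ezh2* Y726D, the largest rises on the same scale were those of Olig3, Nfia, Wnt5a, Scn4b and Fgl2. Olig3, a neural transcription factor gene with 3 lost outside peaks, had 0 in both WT libraries, 0 and 1.94 in *Ezh2* KO, 16.5 and 14.2 in *Ezh1/2* dKO and 16.0 and 24.6 in *Ezh2* Y726D, at least 11.8-fold higher. Being at 0 in WT, Olig3 also passed the filter only through other lines and could be called only as higher. Wnt5a, a secreted signalling protein gene with 4 lost outside peaks within 5 kb of a TSS, had 6.67 and 1.93 in WT, 2.09 and 3.87 in *Ezh2* KO, 50.3 and 31.1 in *Ezh1/2* dKO and 69.5 and 69.4 in *Ezh2* Y726D (log2 fold change 3.89 ± 0.58, adjusted p = 0.019 by limma). Fgl2, whose lost outside peak covered a TSS with no SUZ12 within 5 kb, had 0 and 1.93 in WT, 0 in both *Ezh2* KO libraries, and 17.8 and 20.1 in *Ezh2* Y726D. Wnt5a, Scn4b and Fgl2 were low in WT and *Ezh2* KO and passed the filter only through *Ezh1/2* dKO and *Ezh2* Y726D. Of the 15 genes lower in *Ezh2* Y726D, Col26a1, a collagen gene, had the largest log2 fold change on this scale (-3.60), with 167 and 134 in WT and 22.3 and 5.59 in *Ezh2* Y726D, followed by Stk33, Atf3, Fgf21 and Fut1. In edgeR the change of Col26a1 (-3.35) was smaller than those of Stk33 (-6.36) and Fgf21 (-5.85), which were at 0 in both *Ezh2* Y726D libraries and at least 7.01-fold and 4.94-fold lower in the mean (2.55-fold and 1.92-fold against the lower WT library). Fgf21 and Fut1 are neighbours and share their strongest lost outside peak.

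Tns1, the gene with the most lost outside bases, had a mean of 123 normalized counts in WT (89 and 133 reads in the libraries), and normalized counts of 128 and 433 in *Ezh2* KO, 437 and 450 in *Ezh1/2* dKO and 437 and 478 in *Ezh2* Y726D. It was called higher in *Ezh1/2* dKO (log2 fold change 1.84 ± 0.44, adjusted p = 0.0642 by limma) and in *Ezh2* Y726D (1.88 ± 0.44, adjusted p = 0.0756 by limma), and not in *Ezh2* KO, where 1 library lay near WT and the other near the other lines (0.93 ± 0.44, adjusted p = 0.593 by limma). Pitpnm2 had 17.3 and 39.5 in WT against 29.3 and 36.8 in *Ezh2* KO, and was called in no line. Sez6, Pear1 and Kcnq1 were below the filter. Of the 5 PcG loci with a lost outside peak, 4 were tested, and Wnt5a and Olig3 were called higher in *Ezh1/2* dKO and in *Ezh2* Y726D, where 3.63% and 1.66% of all genes were. These loci were taken from the study of these samples, so they are not independent evidence. Of the 20 developmental transcription factor genes with such a peak, 9 were tested, and Gata4 and Tbx5 were called higher in *Ezh1/2* dKO and none in the other lines. Of the 11 axon guidance and adhesion genes, 5 were tested, with Slit3 called higher in *Ezh1/2* dKO and Dcc lower in *Ezh2* KO.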

How the data were processed

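ChIP-seq, ATAC-seq and RNA-seq of mouse ESC lines were used as deposited. Per the study's methods, reads were aligned with Bowtie to mm9, duplicates removed with Picard and peaks called with MACS2 per library. The lists the authors deposited give each peak's position with its -log10 p and fold enrichment. The broad lists of H3K27me2, H3K27me1 and ATAC-seq hold regions down to a -log10 p of about 1, with narrow blocks inside. HA peaks had no p-value here. A spike-in scaling is not part of the peak lists, and their depth is unknown.

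RNA-seq reads were counted per RefSeq gene without strand by the authors, who deposited normalized counts, a signal of read counts divided by size factors. These were whole multiples of each library's smallest positive value for 100% of values (tolerance 1e-06), which gave recovered read counts. The authors' comparison files hold log2 fold changes and p-values and were not used. As 16466 of 18055 genes matched the GENCODE annotation of the same build (757 by another symbol), the rest were left out of gene classes.

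Overlap meant at least 1 bp. The background was all 500-bp windows of the genome. Intervals are Wilson 95%. The main RNA test was limma 3.58.1 (R 4.3.3) with a mean-variance trend on log2(normalized count + 1), all 8 libraries, mean of at least 5, where a call needed a Benjamini-Hochberg adjusted p under 0.1 with a log2 fold change of 1 or more in size. Fold changes on this scale understate changes of low genes. Alternatives used edgeR 4.0.16 and DESeq2 1.42.0 on recovered reads. Tested on simulated data of 13734 genes for *Ezh2* KO against WT, the limma script recovered 183 of 200 genes changed 4-fold, with 23 false calls. The study states that samples were biological replicates, without saying whether the 2 libraries of a line came from separate cultures, so p-values measure the spread between these libraries.

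Named genes were the 10 with the most bases of lost outside peaks, the nearest genes of the 10 strongest peaks, of the 5 farthest from SUZ12 and of the 5 strongest that gained H3K27me2, called genes (all up to 10 per line and direction, otherwise 5), and list members with such peaks. The regions and lists were chosen with earlier results of these data known. RING1B, H2AK119ub, WT H3K27ac and the rescue lines other than HA were not analysed here. Some genes are not reported here by name.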

Additional observations from a re-analysis of the deposited data

Results flagged for a closer look

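Among the genes named for a call, 12 differed between lines in the sign of their log2 fold change against the same WT libraries, and the difference itself passed in limma (Benjamini-Hochberg adjusted p under 0.1). With 2 libraries per line, single libraries could not be tested as outliers. The genes were named for a call in the same libraries, so the differences and their p-values are not independent of that choice. Only Arg2 and Cacna1s were called in both directions, so for the others a differing sign is not a change in both lines. The log2 fold change of 1 sign lay near 0 for Cobll1 in *Ezh1/2* dKO (0.25 ± 0.57 SE) and Wnt5a in *Ezh2* KO (-0.29 ± 0.58). The same held for Stk33 in *Ezh2* KO (0.09 ± 0.69) and Atf3 in *Ezh1/2* dKO (0.11 ± 0.69). Differences are on the log2(normalized count + 1) scale. *Ezh1/2* dKO lay above *Ezh2* KO by 6.32 for Dcc (adjusted p = 0.00369), 6.47 for Arg2 (adjusted p = 0.00347), 4.11 for Cobll1 (adjusted p = 0.00898), 5.43 for Sp110 (adjusted p = 0.00535), 5.65 for Cacna1s (adjusted p = 0.00219) and 4.57 for Fam124a (adjusted p = 0.00511). For these genes *Ezh2* KO was lower than WT and *Ezh1/2* dKO higher in the mean. The differences were 3.39 for Wnt5a (adjusted p = 0.0228) and 4.30 for Fgl2 (adjusted p = 0.0192). *Ezh2* Y726D minus *Ezh2* KO was 4.18 for Wnt5a (adjusted p = 0.0104) and 4.32 for Fgl2 (adjusted p = 0.0207). Both genes passed the filter only through *Ezh1/2* dKO and *Ezh2* Y726D, where they were high, so these p-values are no independent evidence.

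*Ezh2* Y726D minus *Ezh2* KO was -3.33 for Stk33 (adjusted p = 0.0443), -4.09 for Fgf21 (adjusted p = 0.0244) and -4.07 for Fut1 (adjusted p = 0.0163). *Ezh2* Y726D minus *Ezh1/2* dKO was -5.33 for Stk33 (adjusted p = 0.0116), -4.45 for Fgf21 (adjusted p = 0.022), -4.25 for Fut1 (adjusted p = 0.0188), -3.06 for Atf3 (adjusted p = 0.0901), -3.05 for Sp110 (adjusted p = 0.0874) and -2.80 for Cacna1s (adjusted p = 0.0654).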

How the results depend on the processing

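The regions changed with the rule, and *Ezh2* KO H3K27me2 covered at least 97.1% of their bases under each alternative that kept whole regions. With a WT p of at most 1e-20, 179 peaks were left, with a median gap to SUZ12 of 2167 bp, a TSS within 5 kb for 62%, 4.14% of bases in WT H3K27me2, 97.2% in that of *Ezh2* KO, and *Ezh2* R685C H3K27me3 at 57.0%. Leaving out peaks within 1 kb of *Ezh2* KO H3K27me3 gave 21093 bp, 44.8%, 8.80%, 97.1% and 35.1%. Leaving out those within 5 kb of SUZ12 left 4473 peaks, with 59441 bp, 36.5%, 8.99% in WT and 39.6%. A WT list cut to the length of the *Ezh2* KO list left 2509 peaks, with 5100 bp, 56.5%, 6.34%, 98.3% and 46.3%. Within 1 kb, 18.1% had a TSS. Blocks alone covered 0.00558% of bases in WT and 43.9% in *Ezh2* KO, and the stronger regions 4.51% and 97.2%. Requiring an overlap of 50% of the peak gave 26.9% for *Ezh2* R685C H3K27me3. Each of these alternatives drops peaks, regions or overlaps by construction, and beyond that the cause was not tested.

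Called genes with a lost outside peak within 5 kb of a TSS numbered 10 in *Ezh2* KO, and 6 with pseudocount 5, 3 with no filter, 3 with quantile normalization, 2 with edgeR, 36 with DESeq2, 4 with the 4 libraries compared, 4 within 1 kb and 2 at an adjusted p under 0.05. The share called higher there was 30.0%, 66.7% with quantile normalization and 100% with edgeR. Of all genes, 13 were called higher and 43 lower in the main fit of *Ezh2* KO, and 13 and 32 with pseudocount 5. No filter gave 7 and 28, quantile normalization 9 and 25, and edgeR 7 and 23. DESeq2 gave 45 and 99, the 4 libraries compared 9 and 31, and the stricter threshold 6 and 25. In *Ezh1/2* dKO, 174 became 109 with quantile normalization, 87 within 1 kb and 89 at 0.05. Of all genes, 503 higher and 54 lower became 290 and 129 with quantile normalization and 254 and 31 at 0.05. In *Ezh2* Y726D, 110 became 10 with the 4 libraries compared, 51 within 1 kb and 59 at 0.05. Of all genes, 230 higher and 147 lower became 20 and 12 with the 4 libraries compared and 117 and 83 at 0.05. Leaving out each replicate gave 0 to 32, 0 to 180 and 53 to 130. Apart from the smaller sets and stricter threshold, the cause was not tested. For the 29 results of named genes, 385 alternatives gave 153 that lost the call and 0 reversals.

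Replicate numbers were not taken to pair the samples, since deviations of same-numbered libraries correlated at over 0.1 in 3 of 6 pairs of lines, none of them with WT (range -0.41 to 0.29). With the replicate block, 3 genes with a lost outside peak were called for *Ezh2* KO, 162 for *Ezh1/2* dKO and 97 for *Ezh2* Y726D. Of all genes, 9 were called higher and 25 lower in *Ezh2* KO, 464 and 50 in *Ezh1/2* dKO, and 200 and 130 in *Ezh2* Y726D. A crossed replicate block was chosen after seeing the data, because WT correlated at -0.14 and -0.41 with *Ezh1/2* dKO and *Ezh2* Y726D. It gave 326 calls at genes with a lost outside peak in *Ezh1/2* dKO and 208 in *Ezh2* Y726D. Of all genes, it called 958 higher and 117 lower in *Ezh1/2* dKO, and 470 and 278 in *Ezh2* Y726D.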
